A study of Mus musculus with 2 samples.

Results

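The insulin-like growth factor (IGF) system was examined in pancreatic islets of mice 2 days after birth, in 1 PERK wild-type library and 1 PERK knockout library. All 10 genes chosen were found: the ligands Igf1 and Igf2, the receptors Igf1r, Igf2r and Insr, and the binding proteins Igfbp2, Igfbp3, Igfbp4, Igfbp5 and Igfbp7. They were chosen by gene symbol, and they were represented by 24 of the 22690 probe sets and 10 of the 12393 genes named on the array. The wild-type islets came from mice of mixed strains and both sexes, and the labels of the knockout islets give neither strain nor sex. The Eif2ak3 gene encodes PERK, an endoplasmic reticulum kinase that slows translation initiation when unfolded protein accumulates. The labels do not give the knockout allele, the cells in which PERK was lost, or whether islets of several pups were pooled. Both preparations were made by collagenase P digestion and read on Affymetrix mouse 430A arrays, which probe each transcript with 1 or more sets of short probes. With 1 array per genotype there was no spread between replicates, so no p-value was computed and every ratio compares these 2 libraries.

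IGF1 and IGF2 are small secreted proteins related to insulin, and both signal through the tyrosine kinase IGF1R. IGF2 can also signal through the insulin receptor, while IGF2R, the mannose 6-phosphate receptor, takes up IGF2 and delivers it to lysosomes. IGF binding proteins hold the ligands in plasma and tissue and set how much reaches the receptors. In fetal and newborn pancreas Igf2 is an abundant, paternally expressed imprinted gene, and signalling through the IGF1 and insulin receptors takes part in beta cell growth and function. Mice without PERK grow poorly after birth, and low circulating IGF1 from the liver has been described in them, which raises the question of how the IGF genes are expressed in their islets.

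The deposited values are linear signal intensities in arbitrary units. A signal under 39.8, the 40th percentile of both arrays, was set to that floor. Genes whose signal passed the floor in both libraries are called measured; those that passed it in a single library have a bound, and the remaining genes have no ratio. Ratios are given as log2 of knockout over wild type on the brightest probe set of a gene. Over 8133 measured genes the median log2 ratio was 0.03 with an SD of 0.33. The only error available is the disagreement between probe sets of the same gene, an SD of 0.26 per probe set on the log2 scale over 2597 genes. That SD leaves out the spread between animals, litters and islet preparations. For Eif2ak3 itself the brightest probe set gave 117.7 in wild-type and 58.7 in knockout islets, 2.01-fold lower, and the other 2 lay under the floor in both. The knockout signal of this probe set was under the median signal of its array, 62.6, and not far above the floor. The labels do not say which exons were deleted, so this probe set may lie outside the deleted part.

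None of the 10 IGF genes differed by 1.5-fold between the libraries in either direction. All 10 were measured, with log2 ratios from -0.41 for Igfbp3 to 0.44 for Insr. At least 2-fold differences were found for 0 of the 10 in either direction, against a background of 0.516% of all measured genes higher and 0.652% lower in the knockout. At least 1.5-fold differences were again found for 0 of the 10, against 4.19% of all measured genes higher and 2.95% lower. At such low shares a count of 0 in 10 lies near the background. Of all measured genes past 1.5-fold, the share higher in the knockout was 58.7% as processed here, 37.2% after median centring, 47.4% after quantile normalisation and 46.4% after loess. Of the 10 genes, 7 lay below equality (a log2 ratio under 0), against 45.1% of all measured genes. Their median was -0.17. Taking for each gene the median over its measured probe sets gave a median of -0.06 over the 10 genes, with 6 below equality. With median centring of the arrays it was -0.27, where the median of all measured genes was -0.06.

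**Figure D1:**
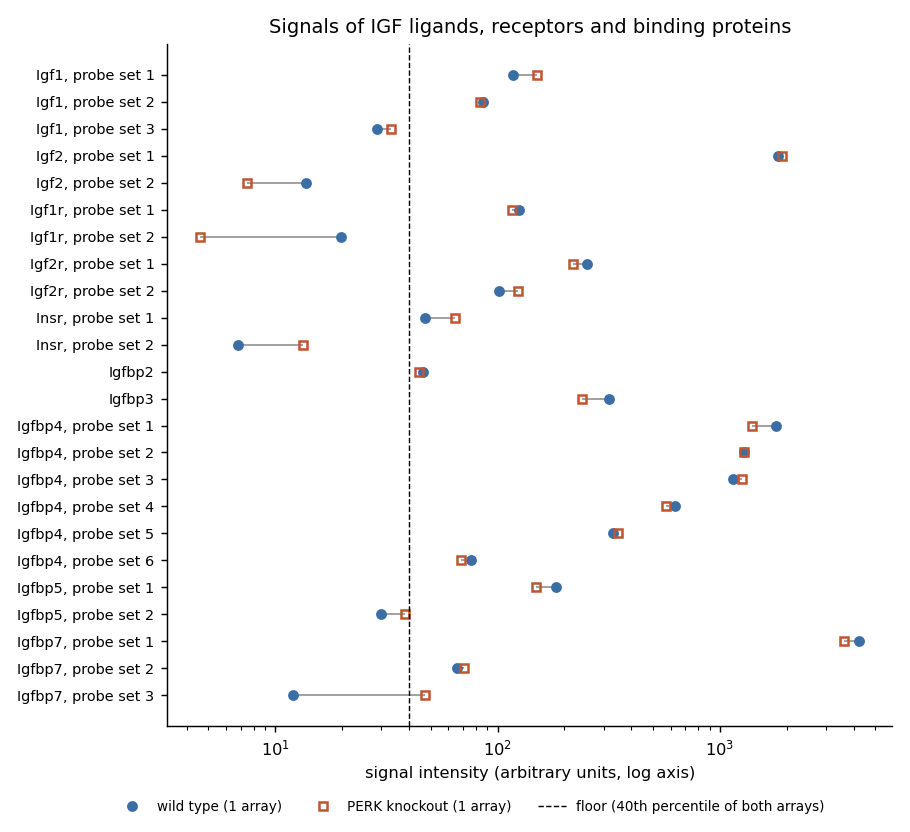
Signal intensity of each probe set of the 10 IGF genes on a log axis, with filled circles for the wild-type array, open squares for the knockout array and a dashed line at the floor of 39.8; probe sets are numbered from the brightest. The paired symbols differ by at most 1.36-fold for the 18 probe sets above the floor on both arrays, and the widest gaps belong to probe sets with a signal under the floor on at least 1 array.

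Igf2, the growth factor of fetal life, read 1826 in wild-type and 1906 in knockout islets on its brightest probe set, 1448152_at. The log2 ratio was 0.06, a 1.04-fold difference, and 81.6% of all measured genes lay at least as far from equality. Its other probe set was under the floor on both arrays, at 13.7 and 7.5, so the Igf2 ratio rests on a single probe set. Igf1, which mediates much of the action of growth hormone after birth and is made in tissues as well as in liver, read 117.8 in wild-type and 151.1 in knockout islets on its brightest probe set, 1437401_at. That is a log2 ratio of 0.36, or 1.28-fold. A second measured probe set of Igf1 gave 86.3 and 83.8, a log2 ratio of -0.04, and the third was under the floor at 28.6 and 33.3. The brightest probe set was thus higher in the knockout library and the second was about level. The gap between them, 0.40, compares with a median absolute difference of 0.22 between the 2 brightest probe sets of a gene over the 2597 genes that have them.

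Among the receptors, Igf1r, the signalling receptor for both IGFs, was about level. Its signal on 1426565_at was 125.5 in wild-type and 115.6 in knockout islets, a log2 ratio of -0.12, and its other probe set was under the floor at 19.8 and 4.6. Igf2r, a maternally expressed imprinted gene in mouse, had 253.5 in wild-type and 217.7 in knockout islets on its brightest probe set (1424111_at), a log2 ratio of -0.22. Its second probe set (1424112_at) went the other way, from 101.1 in the wild type to 123.8 in the knockout, a log2 ratio of 0.29. With 2 measured probe sets on opposite sides of equality, no direction can be read for Igf2r. Insr, the insulin receptor, had the highest ratio of the 10 genes, with 47.2 in wild-type and 64.1 in knockout islets on 1450225_at, 1.36-fold higher with a log2 ratio of 0.44. Both signals lay near the floor of 39.8, the other probe set of Insr was under it at 6.8 and 13.3, and 14.8% of all measured genes lay at least as far from equality. Probe sets of a gene disagreed by an SD of 0.29 on the log2 scale among the 650 dimmest of the 2597 genes, against 0.20 among the 649 brightest.

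The 5 binding proteins all had log2 ratios below 0 on their brightest probe sets, as did 45.1% of all measured genes. Their median was -0.29, against 0.03 over all measured genes, but other probe sets of Igfbp4 and Igfbp7 lay above 0. With the median over the measured probe sets of each gene, the median of the 5 was -0.06. Igfbp3, the main carrier of IGFs in plasma, had 317.5 in wild-type and 238.7 in knockout islets, a log2 ratio of -0.41 or 1.33-fold lower, on its only probe set, 1423062_at. This was the lowest ratio of the 10 genes, and 17.4% of all measured genes lay at least as far from equality. Igfbp5, a binding protein that attaches to extracellular matrix, had 182.3 in wild-type and 149.6 in knockout islets on 1452114_s_at, a log2 ratio of -0.29, with its other probe set under the floor at 29.8 and 38.4. Igfbp2 was barely above the floor at 46.2 in wild-type and 44.2 in knockout islets on 1454159_a_at, a log2 ratio of -0.06. Igfbp2 and Igfbp5 are neighbours on mouse chromosome 1 in RefSeq's order of protein-coding genes.

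Igfbp4, which restrains IGF action until it is cleaved by the pappalysin proteases, was read by 6 probe sets, the most of any of the 10 genes. The brightest, 1437405_a_at, gave 1787 in wild-type and 1389 in knockout islets, a log2 ratio of -0.36. The second gave 1279 in wild-type and 1280 in knockout islets, a log2 ratio of 0.00. The third gave 1145 in wild-type and 1255 in knockout islets, a log2 ratio of 0.13. The 5 other than the brightest lay between -0.16 and 0.13, with 2 of them below -0.10. The 6 log2 ratios had a mean of -0.07 ± 0.18 (SD, n = 6 probe sets of the same 2 libraries, which are not replicates). The brightest probe set thus stood below the other 5, and the ratio of Igfbp4 depended on which one stood for the gene.

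Igfbp7, a secreted protein of vessel walls that binds IGFs weakly, was far above the floor on its brightest probe set, 1423584_at. The signal was 4248 in wild-type and 3627 in knockout islets, a log2 ratio of -0.23, or 52.2% and 44.0% of the brightest signal on the respective array. A second probe set gave 65.9 in wild-type and 70.8 in knockout islets, a log2 ratio of 0.10. The third was under the floor in the wild type at 12.0 and above it in the knockout at 47.0, at least 1.18-fold higher. The dimmer probe sets of Igfbp7 therefore did not follow the brightest.

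**Figure D2:**
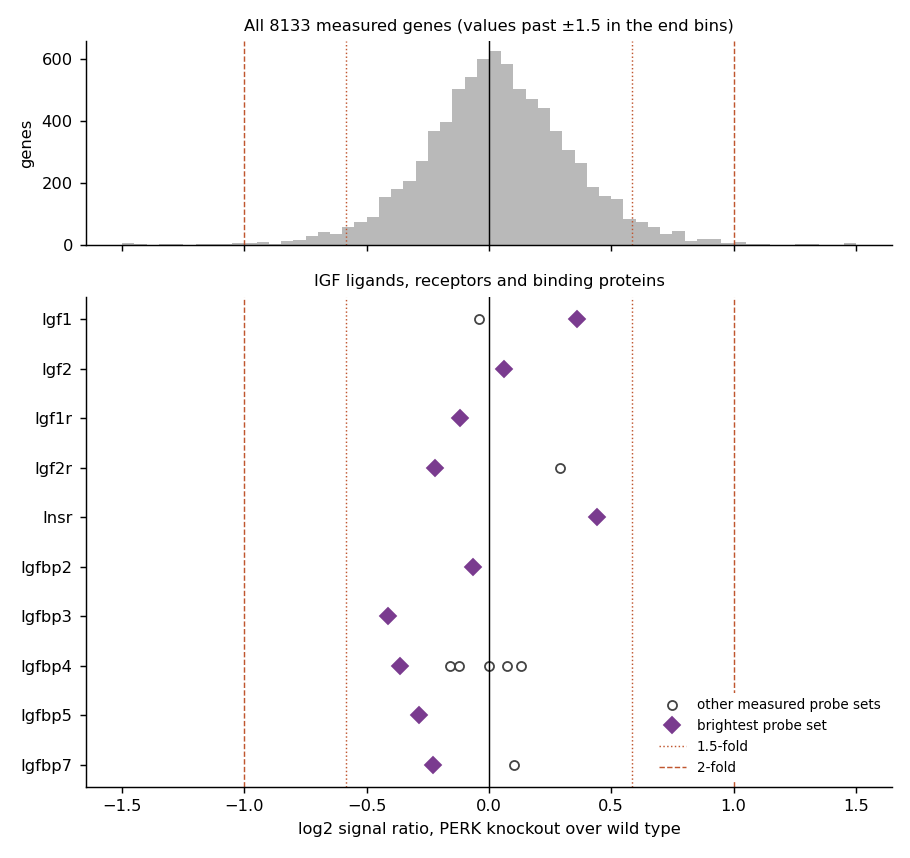
Upper panel, the number of genes at each log2 ratio of knockout over wild type for all 8133 measured genes; lower panel, the same ratio for each measured probe set of the 10 IGF genes, with filled diamonds for the brightest probe set and open circles for the others. Every diamond lies inside the dotted 1.5-fold lines, and Igf1, Igf2r, Igfbp4 and Igfbp7 each have probe sets on both sides of 0.

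Across the system, 4 of the 10 genes (Igf1, Igf2r, Igfbp4 and Igfbp7) had 2 or more measured probe sets, and in 0 of the 4 did all of them lie on the same side of equality. Over all 2597 genes with 2 or more measured probe sets, 53.4% had all of them on the same side. That share was not matched for the number or brightness of probe sets per gene. The ratios of the other 6 genes rest on 1 measured probe set each. Of the 18 measured probe sets of the 10 genes, 10 were below equality and 8 above. Igfbp4 alone supplied 6 of the 18, and the share over all measured probe sets is not given here. Of the 10 ratios on the brightest probe set, 5 were farther from 0 than the disagreement SD of 0.26, against 36.9% of all measured genes: Igf1 and Insr on the higher side, and Igfbp3, Igfbp4 and Igfbp5 on the lower. For Igf1 and Igfbp4 other measured probe sets were nearer to 0.

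**Figure D3:**
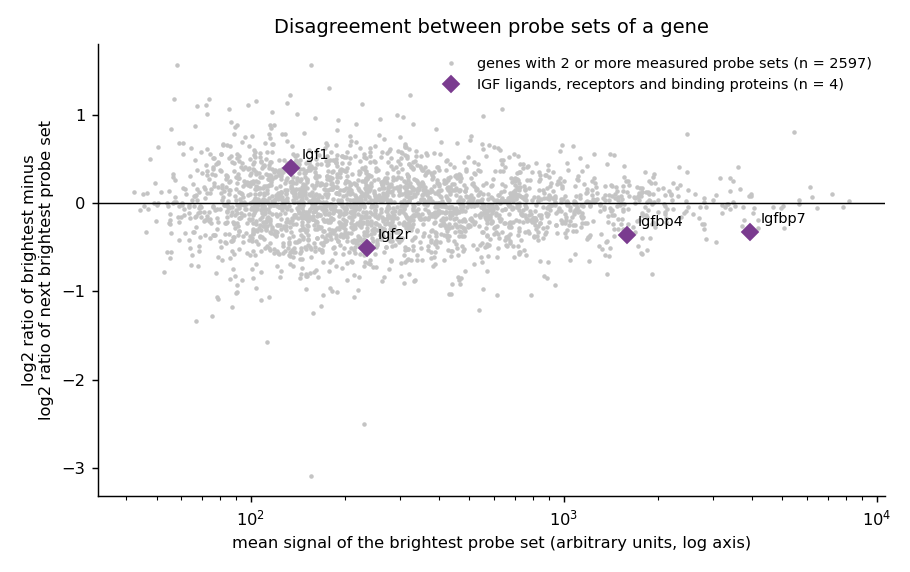
Difference between the log2 ratios of the brightest and the next brightest measured probe set of a gene, against the mean signal of the brightest on a log axis, for 2597 genes (grey points) and for the 4 IGF genes that have such a pair (diamonds). Igf1 lies 0.40 above the zero line, and Igf2r, Igfbp4 and Igfbp7 lie below it, by 0.51 for Igf2r.

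Other genes of the IGF family gave no 1.5-fold difference among those measured. The list of 16 held further binding proteins, the insulin genes, IGF2 mRNA-binding proteins, and proteins that cut or protect binding proteins or degrade insulin. Of these, 7 were measured, with 3 below and 4 above equality, against 45.1% of all measured genes below it. Their median log2 ratio was 0.05. Differences of at least 1.5-fold were found for 0 of the 7, against 4.19% of all measured genes higher and 2.95% lower. Ins2, the insulin gene next to Igf2 on chromosome 7, had 5652 in wild-type and 6163 in knockout islets, a log2 ratio of 0.12. These signals were 69.5% and 74.8% of the array maximum, where a difference can be compressed. Stc2 and Stc1, stanniocalcins that inhibit pappalysins, had log2 ratios of 0.35 and 0.16. Ide, the insulin-degrading enzyme, had -0.29 on its brightest probe set, with 0.22 and 0.17 on its other measured ones. Igfbp6, a binding protein that prefers IGF2, had -0.16. Htra1, a secreted protease, had 0.05, with 0.16 on its second measured probe set. Igf2bp3, which binds IGF2 mRNA, had -0.03, with 0.14 on its second measured probe set. Igfals, which stabilises the complex of IGF and IGFBP3 in plasma, read 59.1 in wild-type and 33.3 in knockout islets, at least 1.48-fold lower. Insrr, the insulin receptor-related receptor, had 48.3 and 35.6, at least 1.21-fold lower. Igfbp1, Igfbpl1, Igf2bp1 and Pappa were under the floor on both arrays. Ins1, Igf2bp2, Pappa2 and the imprinted neighbour of Igf2, H19, had no probe set named by that symbol alone and were not analysed here.

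Downstream of the receptors, insulin receptor substrates and adaptors pass the signal to the kinases PI3K and AKT and to the RAS and MAP kinase cascade, and AKT keeps FOXO transcription factors out of the nucleus. Of 60 such signalling genes, 49 were named on the array and 37 were measured. Of the 37, 23 were above and 14 below equality, against 45.1% of all measured genes below it. The median log2 ratio of the 37 was 0.12, against 0.03 over all measured genes. At least 1.5-fold differences were found for 2 genes higher in the knockout library and 0 lower. Among 37 genes these counts lie near the background of 4.19% and 2.95% of all measured genes given above. Foxo3, a FOXO transcription factor, had 249.0 in wild-type and 419.2 in knockout islets, 1.68-fold higher, with a log2 ratio of 0.27 on its second measured probe set. Sos2, an exchange factor that activates RAS, had 93.2 and 144.7, 1.55-fold higher, on its only probe set. Each of these calls was lost under some setting. Sos2 fell short of 1.5-fold after median centring (log2 ratio 0.54), quantile normalisation (0.56) and loess (0.57) and with a pseudocount in place of the floor (0.50), and Foxo3 did so with the median over its probe sets (0.51). The brightest genes of the list were Grb10, an imprinted inhibitor of IGF1 and insulin receptor signalling, with 1681 in wild-type and 1400 in knockout islets (log2 ratio -0.26), and Rheb, the GTPase that activates mTORC1, with 841.3 and 702.2 (also -0.26).

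Several gene groups of this pathway are given here by name although they were picked after their values were seen. Of the insulin receptor substrates, Irs1 had 156.9 in wild-type and 172.6 in knockout islets, a log2 ratio of 0.14. Irs2, the substrate known for its part in beta cell mass, had 63.7 in wild-type and 36.0 in knockout islets. The second value is under the floor, which makes it at least 1.60-fold lower. Of the 693 genes with a bound, 4.18% were at least 1.5-fold lower in the knockout. Irs4 passed the floor by a small margin in the knockout alone, at 31.5 in wild-type and 40.4 in knockout islets, and Irs3 was under the floor on both arrays. Akt1 had log2 ratios of -0.34 and -0.09 on 2 measured probe sets, and Akt2 had 0.10. Tsc1 and Tsc2, which together restrain mTORC1, had log2 ratios of 0.35 and 0.48. Trib3, an AKT-binding pseudokinase and a known target of the PERK pathway, had 132.3 in wild-type and 97.6 in knockout islets, a log2 ratio of -0.44, while its other probe set passed the floor in the knockout alone (39.2 and 46.4, at least 1.17-fold higher). Foxo1, the FOXO factor best known in beta cells, had log2 ratios of -0.10, 0.00 and -0.13 on its 3 measured probe sets.

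**Figure D4:**
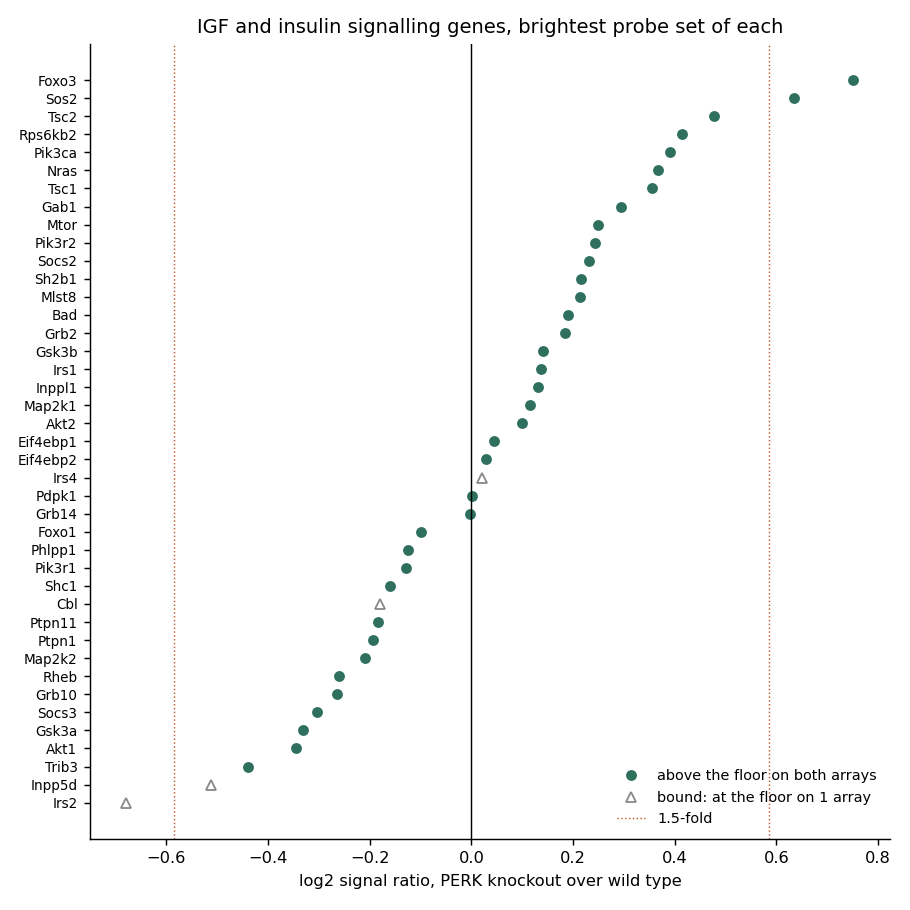
Log2 ratio of knockout over wild type for the 41 IGF and insulin signalling genes with a ratio, with filled circles for the 37 above the floor on both arrays and open triangles for the 4 with a bound; dotted lines mark 1.5-fold. Foxo3 and Sos2 are the filled circles past the line on the higher side, and Irs2 is a bound past it on the lower side.

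The libraries hold RNA of several cell types, and in such bulk samples fewer cells of a type and less RNA per cell cannot be told apart. Islet endocrine markers were bright in both libraries, among them Iapp (6710 in wild-type and 6149 in knockout islets), Gcg (5662 and 5718) and Sst (5645 and 5868). So were acinar enzymes, with Cela3b at 7279 and 7119. These signals lie toward the array maxima, 8133 in wild-type and 8242 in knockout islets, where a difference can be compressed. For the marker counts that follow, 45.1% of all measured genes lay below equality, with a median log2 ratio of 0.03. Stromal and vessel cells are known sources of IGF binding proteins. All 18 mesenchymal markers were measured, 12 of them below equality, with a median log2 ratio of -0.13 and a summed signal of 16757 in wild-type and 15455 in knockout islets. The brightest were Sparc (log2 ratio -0.02) and Vim (-0.01). All 12 endothelial markers were measured, 8 below equality, with a median of -0.12 and a summed signal of 4701 and 4356, led by Esam (-0.10) and Plvap (0.08). Both medians lay on the same side of 0 as that of the 5 binding proteins (-0.29, or -0.06 over probe sets), and their part in those ratios was not tested. Myeloid cells are a known source of Igf1. Of the 14 myeloid markers 2 had a bound, 1 had no ratio and 11 were measured, all 11 above equality, with a median of 0.87 and a summed signal of 1416 in wild-type and 3912 in knockout islets, and their part in the Igf1 ratio was not tested. The brightest were S100a8 (98.9 in wild-type and 788.8 in knockout islets) and S100a9 (120.8 and 778.3), which encode the calprotectin subunits of neutrophils. With the neutrophil granule genes Ngp and Lcn2, these 4 had summed signals of 355.3 and 2175, while the other 7 measured markers, mostly of macrophages, had 1061 and 1737 and a median log2 ratio of 0.72, with Csf1r, the macrophage growth factor receptor, at 0.07. The 7 measured beta cell markers had a median of -0.58, with 6 below equality.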

How the data were processed

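RNA of neonatal mouse islets was measured on 1 array per genotype. Per the submitters' processing notes, GCOS 1.02 made the deposited intensity values, with background correction and probe summary not given in the sources used here. On both arrays the 2% trimmed mean of the deposited intensities was 150.1, so they had been scaled before deposit. Both arrays were set to that trimmed mean (factor 1.00), signals under the 40th percentile were set to it, and log2 ratios were taken in Python 3.11.15. Of 22690 probe sets, 20380 had 1 gene symbol in the platform annotation, 691 had several, 1555 had none and 64 were controls. The brightest probe set stood for each of 12393 genes, of which 8133 were measured, 693 gave a bound and 3567 gave no ratio. The code was tested on simulated data.

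The IGF genes, gene lists and size limits were chosen with earlier results of these data known. Named are all probe sets of the 10 genes, the family list, signalling genes at least 1.5-fold apart (at most 4 in each direction) with the 2 brightest, and bright markers of the lists cited. Other signalling genes and markers were picked after their values were seen. The other marker lists had median log2 ratios of 0.35 (alpha cell, 5 measured genes), 0.34 (delta cell, 2), 0.07 (acinar, 8), 0.00 (duct, 8), 0.18 (Schwann and nerve, 4), 0.47 (liver, 3) and -0.19 (red blood cell, 2). The alternatives, 9 in all, were other scalings, floors, a pseudocount of 32 and other probe set choices. Precision is limited by the number of arrays.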

Additional observations from a re-analysis of the deposited data

How the results depend on the processing

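The counts, medians and single ratios of the 10 genes, the counts and medians of the family and signalling lists, and the ratios of Foxo3, Sos2, Grb10 and Rheb were recomputed under 9 alternatives. The marker lists and other single genes were not. The counts of IGF genes at least 2-fold or 1.5-fold apart stayed at 0 under all 9, and 6 to 8 of those measured were below equality. The count was 8 of 10 with median centring and 6 of 8 with the floor at the 60th percentile. Without _x_at and _s_at probe sets it was 6 of 9. The share of all measured genes below equality is not given for the alternatives. The median log2 ratio of the IGF genes moved from -0.17 to -0.27 with median centring and to -0.062 with the median over probe sets. Median centring lowers every ratio alike, from a median of 0.03 to -0.06 over all measured genes, and puts Igf2 at -0.04. With the median over probe sets Igf2r was 0.04, Igf1 0.16, Igfbp4 -0.06 and Igfbp7 -0.06. Insr and Igfbp2 had no ratio with the floor at the 60th percentile, nor Igfbp5 without _x_at and _s_at probe sets.

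Outside the 10 genes, median centring gave medians of -0.048 for the family list and 0.017 for the signalling list, with that same shift. The family median was below 0 in 5 of the 9 alternatives and ranged from -0.048 to 0.12, so it has no settled sign. The genes in it also changed with the setting, from 4 with the floor at the 60th percentile to 13 with the pseudocount. The signalling median was 0.069 with quantile normalisation, 0.067 with loess and 0.046 with the pseudocount, the last over 49 genes. The medians of all measured genes under these settings were 0.0015, -0.0009 and 0.025. The count of signalling genes at least 1.5-fold higher was 2 of 37 as processed here, against 341 of all 8133 measured genes. It was 1 of 37 with median centring, quantile normalisation, loess and the median over probe sets. With the pseudocount it was 1 of 49. Over all measured genes the counts fell too. They were 214 of 8143, 264 of 8141, 256 of 8144, 300 of 8138 and 261 of 12393 in that order. With the floor at the 25th percentile, which lets in dimmer signals, 1 of 10 family genes and 2 of 47 signalling genes were at least 1.5-fold lower. Of all genes measured at that floor, 359 of 9736 were. No paired analysis was possible because each genotype has 1 array. Islet preparation, litter and genotype cannot be told apart here.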
